A study of Mus musculus with 16 samples.

Results

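Collagen genes were followed across the 4 groups of a lentiviral hairpin experiment in cultured mouse neurons. The members were all protein-coding genes of the count table with a GENCODE symbol made of Col, a number, the letter a and a number, which gave 44 genes of 27 collagen types among the 55335 genes of the table. The cells were primary forebrain neuronal cultures of perinatal mice, and total RNA was sequenced after removal of ribosomal RNA. All 16 samples had received a lentiviral vector, and each group had 4 libraries. The control vector was empty, the next carried a short hairpin RNA without changes (here the unmutated hairpin), and the others carried it with 2 bases changed (the 2-mutation hairpin) or with 5 bases changed (the 5-mutation hairpin). A short hairpin RNA enters the microRNA machinery of the cell and becomes a small guide that lowers the transcripts it pairs with. The labels gave no strain, age in days, time after transduction or promoter of the vectors, and did not say which transcript the hairpin was designed against. Nor did they say if libraries of 1 group stem from different cultures, and every p-value therefore measures the spread between these libraries, which may be technical.

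Collagens are secreted or membrane-anchored proteins in which 3 chains wind into a triple helix, each chain being the product of its own gene. Fibrillar collagens form the banded fibres of skin, bone and cartilage, type IV collagens form the sheet of the basement membrane, type VI collagens form beaded filaments, and fibril-associated collagens with interrupted helices (FACITs) sit on the surface of fibres. Brain tissue holds little fibrous collagen, most of it in the meninges and around vessels, but neurons make several transmembrane and fibril-associated collagens, some of which act at synapses.

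Collagen transcripts were a small part of the RNA, 0.0257% to 0.0696% of the scaled counts of a library. The libraries held 33795369 to 49824569 counts each. Levels are given as CPM (counts scaled to the size of the library), adjusted with TMM factors, and group means as mean ± SD over 4 libraries. Changes are log2 fold changes ± SE from edgeR's quasi-likelihood test on all 19479 genes that passed a filter on low counts, where a negative value is a lower level and adjusted p is the Benjamini-Hochberg value over all of these genes. Of the 44 collagen genes, 43 passed the filter and were tested. The exception was Col4a3, a kidney type IV chain, with 65 counts over the 16 libraries together. A group mean of at least 5 CPM was reached by 21 of the tested genes, and these are given with every library. The exons of 13 collagen genes overlap those of another gene, and since no source used here gives the strandedness of the counting, reads of overlapping genes on opposite strands may not have been told apart. The overlap was 234 bases between Col9a3 and Tcfl5, 563 bases between Col4a3 and C430014B12Rik, and 22 bases between Col4a1 and Col4a2.

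The third library of the 5-mutation group stood apart for collagens. In it, 14 of the 43 tested collagen genes (32.6%) lay above 2 times the mean of the other 3 libraries of the group, against 2.06% of all tested genes. Many but not all tested markers of fibroblasts, mural cells and choroid plexus stood high in the same library. As examples, Fn1 was at 38.0 CPM there against 9.22, 8.43 and 15.3 CPM, and Vtn at 5.03 against 0.610, 0.412 and 0.969 CPM. Ttr was at 112 against 15.1, 5.00 and 43.3 CPM. Fbln1, Rgs5, Myh11, Notch3, Folr1 and Kl lay below 2 times the mean of the other 3 libraries. Their ratios were 1.16, 1.30, 1.06, 1.23, 1.70 and 1.12. Of the endothelial markers, Kdr, Flt1 and Tek had ratios of 2.38, 2.66 and 2.13, and Pecam1 and Esam had 0.866 and 0.701. Pdgfra, listed under the oligodendrocyte lineage, had a ratio of 7.44, while the other tested genes of that list had 1.26 or less. The summed level of the 12 fibroblast and meningeal markers ran from 46.8 to 58.8 CPM with the empty vector, 35.7 to 53.4 with the unmutated hairpin, 33.8 to 50.2 with the 2-mutation hairpin and 26.2 to 82.7 CPM with the 5-mutation hairpin. Of the 9 fibroblast and meningeal markers tested, 4 were higher (44.4%) and 1 lower (11.1%) with the 5-mutation hairpin than with the empty vector. Their median log2 fold change was 0.74. In that comparison 28.4% of all tested genes were higher and 26.5% lower. Without the third library 3 of the 9 markers were higher and 3 lower. Sums of other marker lists also differed between groups. Neuronal markers summed to 5584 to 5899 CPM with the empty vector, 4685 to 4979 with the unmutated, 5399 to 5768 with the 2-mutation and 4833 to 5098 CPM with the 5-mutation hairpin. Astrocyte markers summed to 965 to 1194, 738 to 1075, 736 to 931 and 483 to 695 CPM in that order, and oligodendrocyte lineage markers to 59.1 to 71.4, 86.8 to 106, 55.1 to 62.5 and 88.1 to 107 CPM. The neuronal and oligodendrocyte sums of the unmutated and 5-mutation groups did not overlap those of the empty vector. Nor did the astrocyte sums of the 2-mutation and 5-mutation groups. With the 2-mutation hairpin 0 of 10 astrocyte markers were higher and 6 lower (60%), beside 32.5% and 30.8% of all tested genes. The members of a list did not all move together. With the 5-mutation hairpin, 2 of 7 tested oligodendrocyte markers were higher and 2 lower (28.6% each). Of 10 neuronal markers 3 were higher (30%) and 5 lower (50%), and of 10 astrocyte markers 0 were higher and 3 lower (30%). Mbp was at 63.4 to 76.0 CPM there against 23.3 to 28.9 CPM with the empty vector, and Olig2 at 1.33 to 2.45 against 4.28 to 6.24 CPM. The astrocyte sum was mostly Slc1a2, at 686 to 754 CPM with the empty vector. The 10 endothelial markers reached 3.65 CPM at most, with Cldn5 at 0 in 11 libraries and Tie1 at 0 in 12. The part that these cells play in the collagen levels was not tested, and in bulk RNA fewer cells of a type and less RNA per cell cannot be told apart. Where leaving out the third 5-mutation library changed a call against the empty vector, or moved a called fold change there by over 1.5 times, both values are given.

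Against the empty vector, collagen genes changed in both directions with each hairpin. With the unmutated hairpin, 14 of the 43 tested genes were higher and 7 were lower at an adjusted p below 0.05 in edgeR's test, where 20.8% of all tested genes were higher and 19.5% were lower. The 2-mutation hairpin gave 14 higher and 9 lower collagen genes, where 32.5% of all tested genes were higher and 30.8% were lower. With the 5-mutation hairpin 21 were higher and 6 were lower, beside backgrounds of 28.4% and 26.5%. As shares of the tested collagen genes, the higher calls were 32.6%, 32.6% and 48.8% in the same order, and the lower calls were 16.3%, 20.9% and 13.95%. The share of higher calls with the 2-mutation hairpin was thus at the background of all tested genes. All collagen members are protein-coding, while the tested genes also include other types. In a fit of 14474 protein-coding genes only, 25.4%, 36.6% and 32.7% were higher and 25.7%, 36.2% and 33.5% lower, in the same order. Beside these, the 32.6% of higher collagen calls with the 2-mutation hairpin was below the background. Shares of all tested genes given below also include other gene types. The median log2 fold change of the collagen genes was 0.51, 0.12 and 0.77 for the unmutated, 2-mutation and 5-mutation hairpins in turn, where the medians of all tested genes were 0.01, -0.01 and 0.03. The median size of the log2 change, whatever its sign, was 0.69, 0.84 and 1.15 for collagens and 0.23, 0.42 and 0.32 for all tested genes. Without the third 5-mutation library, 20 collagen genes were higher and 8 lower with the 5-mutation hairpin, and without the fourth library of the unmutated hairpin 9 in place of 14 were higher with that hairpin. These 3 comparisons share the 4 empty vector libraries.

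In at least 1 of the 3 comparisons 36 collagen genes were called. Col4a1, Col4a2, Col5a2, Col6a2 and Col11a1 were higher with each of the 3 hairpins, while Col5a1 and Col19a1 were lower with each. A further 8 genes were called in both directions depending on the hairpin: Col12a1, Col14a1, Col15a1, Col20a1, Col22a1, Col23a1, Col25a1 and Col26a1. The remaining 7 genes were called in none: Col4a4, Col6a4, Col6a6, Col8a1, Col11a2, Col18a1 and Col24a1.

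**Figure D1:**
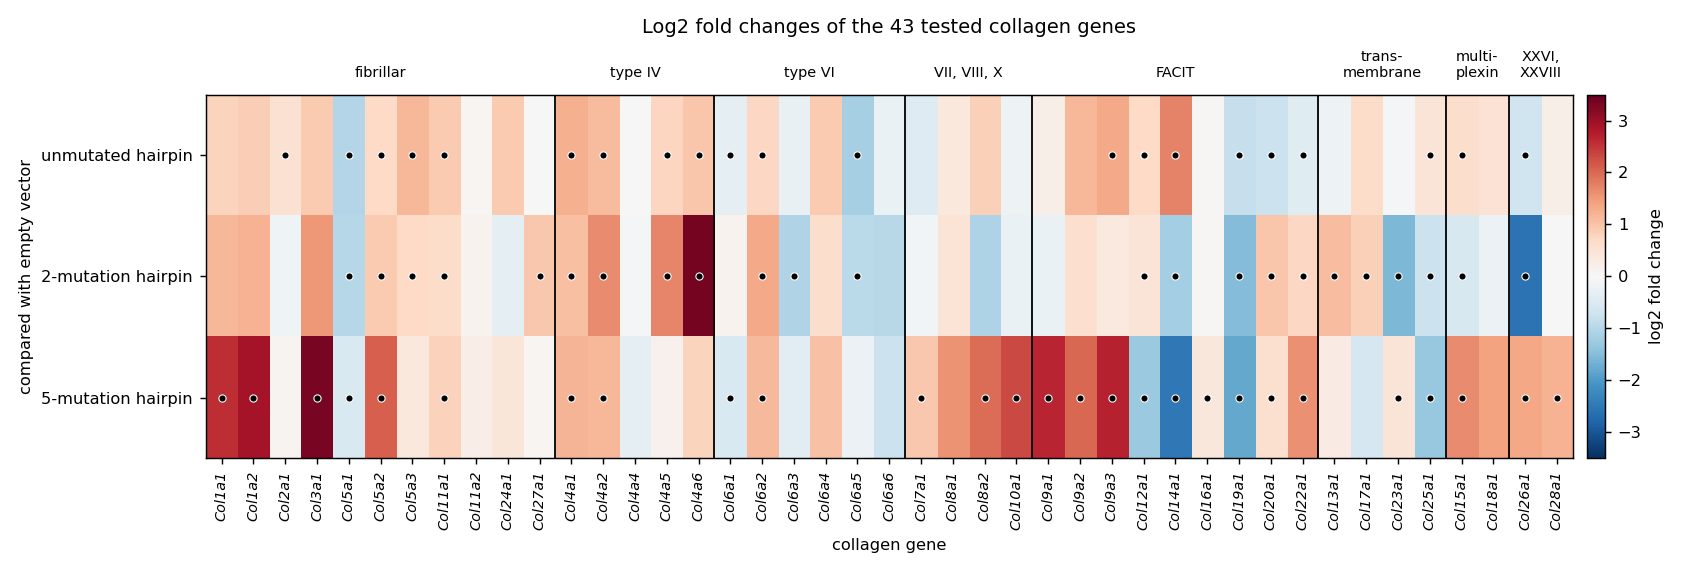
Log2 fold changes against the empty vector for the 43 tested collagen genes (columns, by structural class) with each hairpin (rows), as coloured cells, and a black dot where edgeR's adjusted p was below 0.05. Type IV genes carry dots and red cells with all hairpins for Col4a1 and Col4a2, and Col26a1 turns from blue to red between the 2-mutation (-2.57) and the 5-mutation hairpin (1.35).

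Type IV collagen, the network of the basement membrane, stood higher with each hairpin. Together its 6 genes gave 82.0 ± 3.88 CPM with the empty vector, 181 ± 9.98 with the unmutated hairpin, 231 ± 12.6 with the 2-mutation hairpin and 181 ± 45.1 with the 5-mutation hairpin (159.0 ± 4.13 over 3 libraries without the third). Of the 5 tested, 4 rose with the unmutated hairpin, 4 with the 2-mutation hairpin and 2 with the 5-mutation hairpin, and none fell. The shares that rose were 80%, 80% and 40%, beside 20.8%, 32.5% and 28.4% of all tested genes. Col4a1 and Col4a2 encode the chains of the most widespread basement membrane network and lie head to head on chromosome 8, Col4a1 at chr8:11198423-11312826 on the minus strand and Col4a2 at chr8:11312805-11449287 on the plus strand in GRCm38.

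Col4a1 was at 31.7, 28.4, 30.5 and 29.8 CPM in the 4 empty vector libraries and at 66.7, 68.7, 79.1 and 70.1 CPM with the unmutated hairpin. The 2-mutation libraries held 58.1, 64.9, 73.0 and 55.9 CPM of it and the 5-mutation libraries 53.5, 53.7, 112 and 59.1 CPM. Group means were 30.1 ± 1.38, 71.2 ± 5.46, 63.0 ± 7.72 and 69.5 ± 28.2 CPM in that order. Its 4 empty vector libraries lay below all 12 hairpin libraries. The log2 fold change against the empty vector was 1.24 ± 0.21 (adjusted p = 0.000361) with the unmutated hairpin, 1.06 ± 0.21 log2 units (adjusted p = 0.00058) with the 2-mutation hairpin and 1.20 ± 0.21 log2 units (adjusted p = 0.000272) with the 5-mutation hairpin (without the third library, 0.88 ± 0.08 log2 units, adjusted p = 1.03e-08). The libraries held 42.9, 46.3, 51.1 and 50.2 CPM of Col4a2 with the empty vector and 101, 96.4, 108 and 104 CPM with the unmutated hairpin. With the 2-mutation hairpin they held 140.4, 149, 158 and 154 CPM, and with the 5-mutation hairpin 97.4, 103, 129 and 97.5 CPM. The means of the groups were 47.7 ± 3.77, 102 ± 4.98, 150.4 ± 7.51 and 107 ± 15.1 CPM in the same order. Again no hairpin library reached down to the empty vector, and the 2-mutation libraries were the highest, clear of the other groups. The rises were 1.10 ± 0.08 log2 units (adjusted p = 2.6e-09), 1.66 ± 0.08 log2 units (adjusted p = 1.37e-12) and 1.16 ± 0.08 log2 units (adjusted p = 3.89e-10) with the unmutated, 2-mutation and 5-mutation hairpins. Col4a2 was lower with the unmutated than with the 2-mutation hairpin, by a log2 difference of -0.56 ± 0.08 (adjusted p = 3.57e-06), while Col4a1 did not pass the test between those hairpins, at 0.18 ± 0.20 log2 units (adjusted p = 0.471). Without the third 5-mutation library Col4a1 was higher with the unmutated hairpin (0.36 ± 0.08 log2 units, adjusted p = 0.000534) and the 2-mutation hairpin (0.18 ± 0.08 log2 units, adjusted p = 0.0426) than with the 5-mutation hairpin, where all libraries gave 0.04 ± 0.20 log2 units (adjusted p = 0.888) and -0.14 ± 0.20 log2 units (adjusted p = 0.572).

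**Figure D2:**
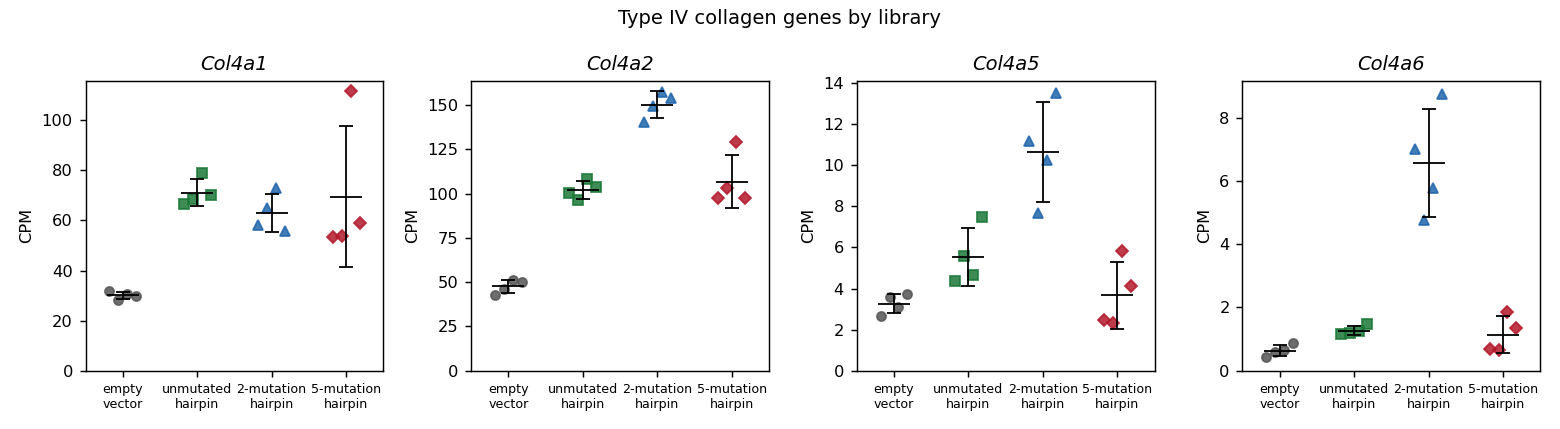
CPM of Col4a1, Col4a2, Col4a5 and Col4a6 in each library of the 4 groups (points), with the mean and SD as a bar. The empty vector points of Col4a1 and Col4a2 lie below all other points, and Col4a5 and Col4a6 stand highest with the 2-mutation hairpin, at means of 10.7 and 6.57 CPM.

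Col4a5 and Col4a6 form a further head-to-head pair, on the X chromosome, Col4a6 at chrX:141165403-141474076 on the minus strand and Col4a5 at chrX:141475385-141689234 on the plus strand, with 1309 bases between their starts. Their chains build a separate network in smooth muscle and some epithelia, and the Col4a5 chain also takes part in the kidney network. For Col4a5 the empty vector libraries gave 2.67, 3.57, 3.11 and 3.72 CPM, and the unmutated hairpin gave 4.39, 5.57, 4.66 and 7.49 CPM. Levels were 11.2, 7.67, 10.3 and 13.5 CPM with the 2-mutation and 2.48, 2.31, 5.81 and 4.10 CPM with the 5-mutation hairpin. This gave means of 3.27 ± 0.475, 5.53 ± 1.40, 10.7 ± 2.43 and 3.68 ± 1.63 CPM. The 5-mutation libraries of Col4a5 overlapped those of the empty vector. In the empty vector group Col4a6 stood at 0.431, 0.595, 0.662 and 0.864 CPM, and in the unmutated group at 1.16, 1.19, 1.25 and 1.46 CPM. Values of 7.0, 4.76, 5.79 and 8.74 CPM were measured with the 2-mutation hairpin and of 0.676, 0.647, 1.86 and 1.35 CPM with the 5-mutation hairpin. Averaged by group, Col4a6 was at 0.638 ± 0.179, 1.27 ± 0.137, 6.57 ± 1.71 and 1.13 ± 0.584 CPM. Both genes were highest in the 2-mutation libraries, which did not overlap any other group. With the 2-mutation hairpin Col4a6 rose by 3.34 ± 0.29 log2 units (adjusted p = 6.53e-09), the highest fold change among the collagen genes in that comparison, and Col4a5 rose by 1.71 ± 0.27 log2 units (adjusted p = 5.19e-05). The unmutated hairpin gave 0.76 ± 0.28 log2 units (adjusted p = 0.0413) for Col4a5 and 0.97 ± 0.32 log2 units (adjusted p = 0.0208) for Col4a6. No unmutated library overlapped the empty vector for either gene, but both calls were near the threshold. The call on Col4a5 was lost without any 1 of the 4 empty vector libraries and without library 2 or 4 of the unmutated hairpin (adjusted p = 0.0562 to 0.133). With DESeq2 size factors in edgeR's test it was lost as well (adjusted p = 0.0514). The call on Col4a6 was lost without empty vector library 1 or 2 and without the fourth library of the unmutated hairpin (adjusted p = 0.0508 to 0.0682). The 5-mutation hairpin gave 0.15 ± 0.28 log2 units (adjusted p = 0.697) and 0.77 ± 0.32 log2 units (adjusted p = 0.0513). This value of Col4a6 passed by the DESeq2 Wald test (adjusted p = 0.0212) and with the library number as a block in edgeR's test (adjusted p = 0.0138). Without the third 5-mutation library it was 0.43 ± 0.30 log2 units (adjusted p = 0.235). Between the 2-mutation and 5-mutation hairpins the log2 difference was 1.56 ± 0.27 log2 units (adjusted p = 9.69e-05) for Col4a5 and 2.57 ± 0.27 log2 units (adjusted p = 7.6e-08) for Col4a6.

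The 250 bases upstream of the RefSeq start of Col4a6, at chrX:141474077-141474326 on the minus strand of GRCm38.p6, are shown because this gene had the highest rise of the family with the 2-mutation hairpin. Capitals mark the match to the GC box, searched as GGGCGG on both strands, and the window held no CCAAT and no TATAAA on either strand.
Col4a6: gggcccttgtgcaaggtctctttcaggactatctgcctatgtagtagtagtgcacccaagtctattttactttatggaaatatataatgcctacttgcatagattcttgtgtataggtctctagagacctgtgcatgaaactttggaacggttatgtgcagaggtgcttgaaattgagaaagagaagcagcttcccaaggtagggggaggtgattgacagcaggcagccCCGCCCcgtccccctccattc
The equivalent window of Col4a5 held 1 GC box and 1 CCAAT. Of 38 windows found for 35 collagen genes, 22 held a GC box, 13 a CCAAT and 5 a TATAAA, and among all 32851 RefSeq windows the shares were 32.7%, 33.8% and 12.4%. These matches are letters in a window and not measured binding.

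Ratios of partner chains, per kilobase of exon, are given as values without a test. The level of Col4a5 was 6.29 ± 1.12 times that of Col4a6 with the empty vector, 5.13 ± 0.813 times with the unmutated hairpin, 1.94 ± 0.115 times with the 2-mutation hairpin and 3.98 ± 0.381 times with the 5-mutation hairpin. For Col4a1 to Col4a2 the ratio was 0.564 ± 0.0614, 0.617 ± 0.0279, 0.371 ± 0.0378 and 0.563 ± 0.139 in the same order. Both ratios were lowest with the 2-mutation hairpin, whose libraries did not overlap those of any other group. For Col6a1 to Col6a2, the shared chains of type VI collagen, the ratio was 23.8 ± 4.04, 11.5 ± 1.49, 10.4 ± 1.59 and 7.47 ± 1.14, and the empty vector libraries lay above all others. For Col1a1 to Col1a2, the partners of type I collagen, it was 3.90 ± 0.555, 3.50 ± 0.405, 3.73 ± 0.755 and 3.16 ± 0.278, and the groups overlapped.

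**Figure D3:**
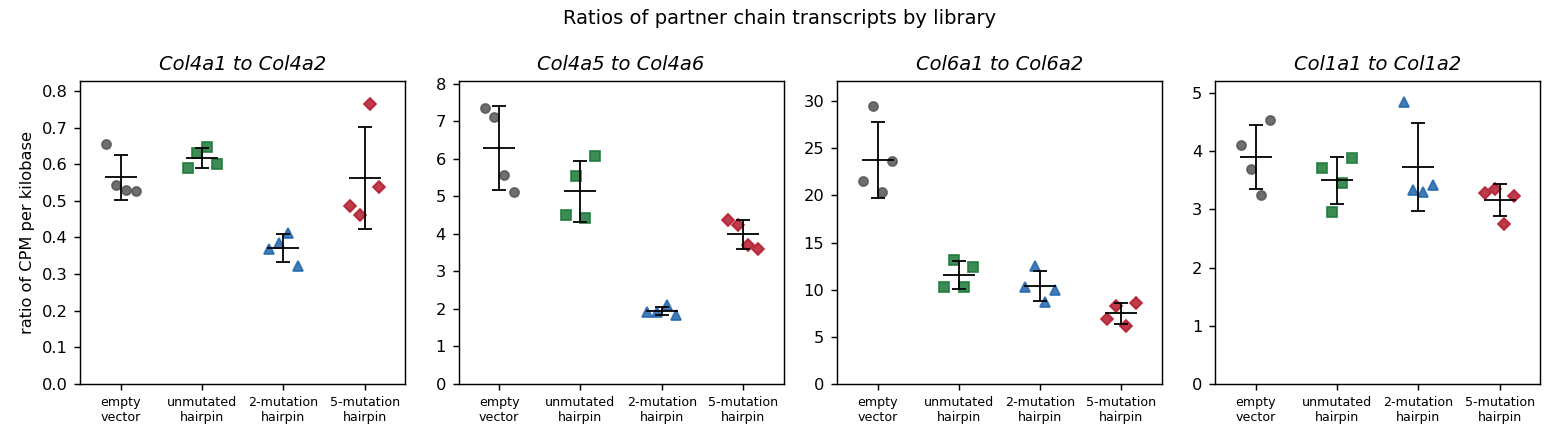
Ratio of CPM per kilobase of exon between partner chain genes in each library (points), with the mean and SD as a bar, for 4 pairs. The 2-mutation libraries are lowest for Col4a1 to Col4a2 and Col4a5 to Col4a6, the empty vector libraries are highest for Col6a1 to Col6a2, and the groups overlap for Col1a1 to Col1a2.

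Among the 11 fibrillar collagens, 4 were higher and 1 lower with the unmutated hairpin, 4 higher and 1 lower with the 2-mutation hairpin, and 5 higher and 1 lower with the 5-mutation hairpin. As shares of the class, 36.4%, 36.4% and 45.5% were higher and 9.09% lower each time. Over all tested genes 20.8%, 32.5% and 28.4% were higher and 19.5%, 30.8% and 26.5% lower. Col1a1 and Col1a2 encode the chains of type I collagen, the main collagen of bone, skin and meninges, and Col3a1 encodes type III collagen, which is a ligand of the receptor Adgrg1 in the developing brain. Empty vector libraries had Col1a1 at 2.87, 2.62, 6.16 and 2.76 CPM and unmutated hairpin libraries at 3.85, 4.23, 10.3 and 7.04 CPM. For the 2-mutation libraries it was 5.03, 5.51, 15.6 and 6.89 CPM, and for the 5-mutation libraries 8.48, 9.08, 58.2 and 13.7 CPM. In group order the means were 3.60 ± 1.71, 6.35 ± 2.98, 8.25 ± 4.94 and 22.4 ± 24.0 CPM. The third library was the highest of its group each time, and of the hairpin groups only the 5-mutation libraries all lay above the empty vector. Col1a2 was at 1.32, 1.34, 3.60 and 1.15 CPM in the 4 empty vector libraries and at 1.97, 2.71, 5.63 and 3.43 CPM with the unmutated hairpin. The 2-mutation libraries held 1.96, 3.13, 8.94 and 3.82 CPM of it and the 5-mutation libraries 4.88, 5.12, 40.1 and 8.03 CPM. Group means were 1.85 ± 1.17, 3.44 ± 1.58, 4.46 ± 3.08 and 14.5 ± 17.1 CPM in that order. Both statements also held for Col1a2. The libraries held 1.32, 1.46, 3.64 and 1.37 CPM of Col3a1 with the empty vector and 1.27, 2.36, 8.09 and 3.31 CPM with the unmutated hairpin. With the 2-mutation hairpin they held 2.26, 4.19, 12.4 and 3.97 CPM, and with the 5-mutation hairpin 4.84, 9.10, 57.5 and 9.79 CPM. The means of the groups were 1.95 ± 1.13, 3.76 ± 3.01, 5.71 ± 4.54 and 20.3 ± 24.9 CPM in the same order. They held for Col3a1 as well, and the third 5-mutation library was far above the others for all 3 genes. The log2 fold change with the 5-mutation hairpin was 2.59 ± 0.70 (adjusted p = 0.00698) for Col1a1, 2.92 ± 0.80 log2 units (adjusted p = 0.00743) for Col1a2 and 3.33 ± 0.92 log2 units (adjusted p = 0.00768) for Col3a1. Without the third 5-mutation library these became 1.50 ± 0.49 log2 units (adjusted p = 0.0224), 1.66 ± 0.56 log2 units (adjusted p = 0.0268) and 1.99 ± 0.70 log2 units (adjusted p = 0.0319), so the calls remained at lower folds. Of the 9 tested fibroblast and meningeal markers, 4 were higher (44.4%) and 1 lower (11.1%) in the same comparison, beside 28.4% and 26.5% of all tested genes. Dcn, a fibroblast proteoglycan named after its values were seen, was at 18.2, 18.9, 19.6 and 25.1 CPM with the empty vector and at 3.94, 4.35, 10.5 and 6.12 CPM with the 5-mutation hairpin. The part of these cells in the levels of Col1a1, Col1a2 and Col3a1 was not tested.

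With the unmutated hairpin none of the 3 genes passed the test (0.79 ± 0.74 log2 units, adjusted p = 0.433 for Col1a1, 0.86 ± 0.85 log2 units, adjusted p = 0.463 for Col1a2 and 0.91 ± 0.99 log2 units, adjusted p = 0.506 for Col3a1), nor with the 2-mutation hairpin (1.17 ± 0.72 log2 units, adjusted p = 0.178, 1.23 ± 0.83 log2 units, adjusted p = 0.216 and 1.51 ± 0.95 log2 units, adjusted p = 0.187). Their group means were above those of the empty vector in each case. The unmutated hairpin was lower than the 5-mutation hairpin, with differences for Col1a1 of -1.80 ± 0.66 log2 units (adjusted p = 0.0353), for Col1a2 of -2.06 ± 0.75 log2 units (adjusted p = 0.0331) and for Col3a1 of -2.42 ± 0.85 log2 units (adjusted p = 0.0287). None of these 3 differences passed without the third 5-mutation library (-0.71 ± 0.47 log2 units, adjusted p = 0.228, -0.80 ± 0.54 log2 units, adjusted p = 0.233 and -1.07 ± 0.66 log2 units, adjusted p = 0.196), and each was also lost without library 1, 2 or 4 of the unmutated hairpin. The results against the empty vector depended on the fit. With the library number as a block in edgeR's test, Col1a2 and Col3a1 passed with the unmutated hairpin (adjusted p = 0.0456 and 0.0427). All 3 genes passed in that fit with the 2-mutation hairpin (adjusted p = 0.00626, 0.00764 and 0.00113). The labels do not say what a number marks. Without the filter on low counts all 3 genes also passed in edgeR's test, at similar fold changes. Adjusted p was 6.3e-13, 5.26e-09 and 7.29e-12 with the unmutated hairpin and 1.47e-29, 1.79e-19 and 5.28e-35 with the 2-mutation hairpin.

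**Figure D4:**
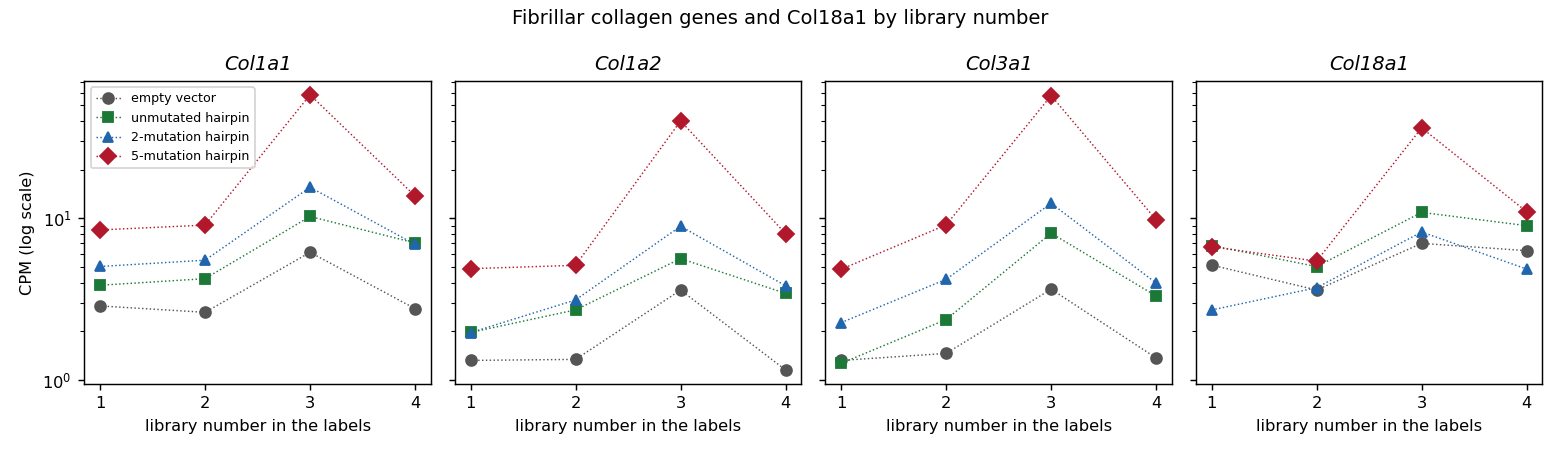
CPM on a log scale of Col1a1, Col1a2, Col3a1 and Col18a1 against the library number in the labels, with 1 symbol for each group and dotted lines joining libraries of a group. Library 3 is the highest point of every group in all panels, and the 5-mutation library 3 reaches 58.2, 40.1, 57.5 and 36.3 CPM.

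Col5a1 and Col5a2 encode partner chains of type V collagen, which starts fibres and sets their width, and they moved in opposite directions. For Col5a1 the empty vector libraries gave 20.9, 23.7, 16.9 and 15 CPM, and the unmutated hairpin gave 9.35, 9.33, 10.1 and 8.55 CPM. Levels were 8.34, 10.5, 10.7 and 8.44 CPM with the 2-mutation and 10.2, 14.6, 17.5 and 10.7 CPM with the 5-mutation hairpin. This gave means of 19.1 ± 3.95, 9.34 ± 0.649, 9.49 ± 1.27 and 13.3 ± 3.44 CPM. Col5a1 fell with the unmutated hairpin (-1.03 ± 0.17 log2 units, adjusted p = 0.000202) and with the 2-mutation hairpin (-1.01 ± 0.17 log2 units, adjusted p = 9.88e-05), and neither overlapped the empty vector. The 5-mutation hairpin gave -0.53 ± 0.17 log2 units (adjusted p = 0.0152) with overlapping libraries, a call lost without the second empty vector library (adjusted p = 0.0528), without the first 5-mutation library (adjusted p = 0.0507) and in a fit of these 2 groups alone (adjusted p = 0.0632). In the empty vector group Col5a2 stood at 2.35, 3.45, 3.0 and 3.02 CPM, and in the unmutated group at 3.64, 4.91, 5.69 and 4.79 CPM. Values of 5.27, 4.39, 6.05 and 6.44 CPM were measured with the 2-mutation hairpin and of 8.93, 10.3, 20.2 and 11.5 CPM with the 5-mutation hairpin. Averaged by group, Col5a2 was at 2.96 ± 0.453, 4.76 ± 0.845, 5.54 ± 0.906 and 12.7 ± 5.09 CPM. Col5a2 rose by 0.91 ± 0.24 log2 units (adjusted p = 0.00389) with the 2-mutation and by 2.10 ± 0.24 log2 units (adjusted p = 1.29e-06) with the 5-mutation hairpin, the latter being 1.79 ± 0.15 log2 units (adjusted p = 9.52e-10) without the third library. The rise of 0.69 ± 0.25 log2 units (adjusted p = 0.0356) with the unmutated hairpin was lost without empty vector library 1, 3 or 4 and without library 2, 3 or 4 of the unmutated hairpin (adjusted p = 0.068 to 0.103).

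The less abundant fibrillar genes stayed below 5 CPM in every group mean. Col11a1, a cartilage chain, rose by 0.90 ± 0.23 log2 units (adjusted p = 0.00309), 0.63 ± 0.23 log2 units (adjusted p = 0.0207) and 0.82 ± 0.23 log2 units (adjusted p = 0.00443) with the unmutated, 2-mutation and 5-mutation hairpins, from 1.16 ± 0.0417 CPM with the empty vector. The 2-mutation call on Col11a1 was lost without the first 2-mutation library (adjusted p = 0.0856). Its 5-mutation value was 0.47 ± 0.18 log2 units (adjusted p = 0.0303) without the third 5-mutation library. Col5a3, a further type V chain, rose with the unmutated (1.15 ± 0.22 log2 units, adjusted p = 0.000183) and the 2-mutation hairpin (0.70 ± 0.22 log2 units, adjusted p = 0.00844). Col27a1 rose with the 2-mutation hairpin by 0.94 ± 0.16 log2 units (adjusted p = 1.76e-05), and it was also higher there than with the unmutated (-0.93 ± 0.16 log2 units, adjusted p = 1.88e-05 for unmutated against 2-mutation) and the 5-mutation hairpin (0.86 ± 0.15 log2 units, adjusted p = 4.12e-05 for 2-mutation against 5-mutation). Col2a1, the main collagen of cartilage, rose with the unmutated hairpin by 0.54 ± 0.21 log2 units (adjusted p = 0.0467), a call lost without empty vector library 1, 3 or 4 or library 2, 3 or 4 of the unmutated hairpin (adjusted p = 0.0742 to 0.134) and by DESeq2 (adjusted p = 0.0781). Col11a2 and Col24a1 passed in no comparison with the empty vector.

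Type VI collagen is a beaded filament around cells in many tissues. Of 6 tested genes 1 was higher with each hairpin, and 2, 2 and 1 were lower with the unmutated, 2-mutation and 5-mutation hairpins. As shares, 16.7% were higher each time and 33.3%, 33.3% and 16.7% lower. Over all tested genes 20.8%, 32.5% and 28.4% were higher and 19.5%, 30.8% and 26.5% lower. Empty vector libraries had Col6a1 at 27.4, 31.4, 25.3 and 31.1 CPM and unmutated hairpin libraries at 21.2, 22.8, 23.1 and 25.2 CPM. For the 2-mutation libraries it was 31.6, 32.2, 31.1 and 30.2 CPM, and for the 5-mutation libraries 19.6, 24.3, 20 and 15.8 CPM. In group order the means were 28.8 ± 2.96, 23.1 ± 1.63, 31.3 ± 0.855 and 19.9 ± 3.50 CPM. Col6a1 fell with the unmutated (-0.32 ± 0.10 log2 units, adjusted p = 0.0137) and the 5-mutation hairpin (-0.53 ± 0.10 log2 units, adjusted p = 0.00014), and the value with the 2-mutation hairpin was 0.12 ± 0.10 log2 units (adjusted p = 0.282). Col6a2 was at 2.41, 2.02, 2.36 and 2.49 CPM in the 4 empty vector libraries and at 3.93, 3.30, 4.28 and 3.86 CPM with the unmutated hairpin. The 2-mutation libraries held 5.87, 4.89, 6.80 and 5.73 CPM of it and the 5-mutation libraries 5.38, 5.57, 6.17 and 3.52 CPM. Group means were 2.32 ± 0.207, 3.84 ± 0.406, 5.82 ± 0.782 and 5.16 ± 1.15 CPM in that order. Its partner Col6a2 rose with all 3, by 0.72 ± 0.15 log2 units (adjusted p = 0.000674), 1.32 ± 0.15 log2 units (adjusted p = 8.59e-08) and 1.15 ± 0.15 log2 units (adjusted p = 1.06e-06), and no hairpin library overlapped the empty vector. Col6a3, the third chain of the classical filament, fell with the 2-mutation hairpin (-1.06 ± 0.32 log2 units, adjusted p = 0.00863). Col6a5, an alternative to that chain, fell with the unmutated (-1.16 ± 0.22 log2 units, adjusted p = 0.000162) and the 2-mutation hairpin (-0.94 ± 0.21 log2 units, adjusted p = 0.000437). Col6a4 and Col6a6, the other alternatives, were not called against the empty vector when all libraries were used. Calls on 3 type VI genes with the 5-mutation hairpin depended on the third library of that group. With all libraries Col6a3 was at -0.39 ± 0.31 log2 units (adjusted p = 0.307), Col6a4 at 1.01 ± 0.41 log2 units (adjusted p = 0.0519) and Col6a6 at -0.74 ± 0.67 log2 units (adjusted p = 0.373). Without that library Col6a3 was lower at -0.92 ± 0.18 log2 units (adjusted p = 0.000128) and Col6a6 lower at -2.41 ± 0.59 log2 units (adjusted p = 0.00146), while Col6a4 was higher at 1.26 ± 0.37 log2 units (adjusted p = 0.0116), so that 2 type VI genes were higher and 3 lower. Col6a6 was close to the floor, at 0.667 CPM in that library and 0.0392 to 0.102 CPM in the rest of the group.

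Fibril-associated collagens changed in both directions with each hairpin. Of 9 tested genes 3 rose and 3 fell with the unmutated hairpin, 3 rose and 2 fell with the 2-mutation hairpin, and 6 rose and 3 fell with the 5-mutation hairpin. As shares, 33.3%, 33.3% and 66.7% rose and 33.3%, 22.2% and 33.3% fell. Over all tested genes 20.8%, 32.5% and 28.4% were higher and 19.5%, 30.8% and 26.5% lower. Col19a1, at chr1:24261890-24587472, is made by a subset of forebrain interneurons and takes part in the formation of inhibitory synapses. The libraries held 18.7, 19.7, 20.7 and 19.7 CPM of Col19a1 with the empty vector and 10.0, 10.2, 12.0 and 13.2 CPM with the unmutated hairpin. With the 2-mutation hairpin they held 6.53, 6.53, 7.22 and 7.41 CPM, and with the 5-mutation hairpin 5.16, 7.40, 4.36 and 5.81 CPM. The means of the groups were 19.7 ± 0.848, 11.4 ± 1.53, 6.92 ± 0.462 and 5.68 ± 1.29 CPM in the same order. It fell with all 3 hairpins with changes of -0.80 ± 0.11 log2 units (adjusted p = 8e-06), -1.51 ± 0.12 log2 units (adjusted p = 3.68e-10) and -1.78 ± 0.12 log2 units (adjusted p = 6.03e-11), and every empty vector library lay above every hairpin library. It was higher with the unmutated than with the 2-mutation (0.71 ± 0.12 log2 units, adjusted p = 1.95e-05) or the 5-mutation hairpin (0.99 ± 0.12 log2 units, adjusted p = 4.9e-07), and the 2-mutation and 5-mutation groups overlapped, with a log2 difference of 0.27 ± 0.12 (adjusted p = 0.0541). Gad1 and Gad2, which make the transmitter of inhibitory neurons and were among the neuronal markers, also stood lower in all hairpin libraries. Gad1 was at 209.8 to 242 CPM with the empty vector, 62.4 to 105 with the unmutated, 47.4 to 80.0 with the 2-mutation and 122 to 162 CPM with the 5-mutation hairpin. Gad2 was at 156 to 191, 23.0 to 66.8, 9.94 to 28.3 and 29.4 to 62.3 CPM in that order. Their part in the level of Col19a1 was not tested.

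Col14a1 and Col12a1 encode collagens that bind the surface of type I fibres. For Col14a1 the empty vector libraries gave 1.12, 1.79, 1.88 and 1.30 CPM, and the unmutated hairpin gave 4.63, 5.14, 5.74 and 4.74 CPM. Levels were 0.555, 0.645, 0.706 and 0.773 CPM with the 2-mutation and 0.218, 0.137, 0.50 and 0.255 CPM with the 5-mutation hairpin. This gave means of 1.52 ± 0.369, 5.06 ± 0.499, 0.670 ± 0.0928 and 0.278 ± 0.156 CPM. Col14a1 rose with the unmutated hairpin by 1.73 ± 0.20 log2 units (adjusted p = 4.67e-07) and fell with the 2-mutation and 5-mutation hairpins with changes of -1.18 ± 0.23 log2 units (adjusted p = 0.000127) and -2.51 ± 0.27 log2 units (adjusted p = 4.95e-08). The difference between the unmutated and the 5-mutation hairpin was 4.24 ± 0.25 log2 units (adjusted p = 3.27e-12), and none of the 4 groups overlapped another. In the empty vector group Col12a1 stood at 4.79, 6.67, 6.62 and 6.38 CPM, and in the unmutated group at 6.95, 10.5, 9.81 and 12.4 CPM. Values of 8.47, 7.54, 8.07 and 9.62 CPM were measured with the 2-mutation hairpin and of 1.92, 2.45, 3.64 and 2.06 CPM with the 5-mutation hairpin. Averaged by group, Col12a1 was at 6.12 ± 0.891, 9.91 ± 2.27, 8.43 ± 0.883 and 2.52 ± 0.782 CPM. Col12a1 rose with the unmutated hairpin by 0.70 ± 0.18 log2 units (adjusted p = 0.00422) and fell with the 5-mutation hairpin (-1.29 ± 0.20 log2 units, adjusted p = 1.88e-05). Its rise with the 2-mutation hairpin, 0.46 ± 0.18 log2 units (adjusted p = 0.0312), was lost without the first empty vector library (adjusted p = 0.1), the first 2-mutation library (adjusted p = 0.0555) or the fourth (adjusted p = 0.0911).

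Col22a1, a collagen of tissue junctions at chr15:71795795-72034227, went the other way. Empty vector libraries had Col22a1 at 8.01, 9.02, 8.63 and 7.24 CPM and unmutated hairpin libraries at 6.79, 6.20, 6.51 and 5.10 CPM. For the 2-mutation libraries it was 12.7, 14.5, 12.0 and 14.6 CPM, and for the 5-mutation libraries 22.7, 27.9, 24.7 and 23.6 CPM. In group order the means were 8.23 ± 0.777, 6.15 ± 0.741, 13.5 ± 1.31 and 24.7 ± 2.29 CPM. Col22a1 fell with the unmutated hairpin (-0.42 ± 0.10 log2 units, adjusted p = 0.00159), and rose with the 2-mutation hairpin by 0.71 ± 0.09 log2 units (adjusted p = 6.61e-07) and with the 5-mutation hairpin by 1.59 ± 0.09 log2 units (adjusted p = 2.2e-12). The 2-mutation group lay below the 5-mutation group by -0.88 ± 0.09 log2 units (adjusted p = 9.26e-09) and above the unmutated group, with no overlap among the 4 groups. The 3 type IX chains, known from cartilage, all rose with the 5-mutation hairpin. Col9a1 was at 1.95, 1.37, 1.55 and 1.68 CPM in the 4 empty vector libraries and at 1.89, 1.64, 2.48 and 1.61 CPM with the unmutated hairpin. The 2-mutation libraries held 1.34, 1.74, 1.04 and 1.42 CPM of it and the 5-mutation libraries 13.4, 7.43, 11.8 and 8.90 CPM. Group means were 1.64 ± 0.246, 1.91 ± 0.405, 1.38 ± 0.288 and 10.4 ± 2.70 CPM in that order. Col9a1 rose by 2.66 ± 0.19 log2 units (adjusted p = 1.45e-10), Col9a2 by 2.00 ± 0.42 log2 units (adjusted p = 0.000314) and Col9a3 by 2.69 ± 0.26 log2 units (adjusted p = 7.55e-09) there. Of these, Col9a3 alone also passed with the unmutated hairpin, at 1.34 ± 0.27 log2 units (adjusted p = 0.000375). The 5-mutation hairpin was higher than the 2-mutation hairpin for all 3, with 2-mutation against 5-mutation differences of -2.91 ± 0.19 log2 units (adjusted p = 1.69e-11), -1.40 ± 0.38 log2 units (adjusted p = 0.0024) and -2.34 ± 0.24 log2 units (adjusted p = 1.68e-08). Col9a2 was at a low level, 0.278 to 0.610 CPM in the 5-mutation libraries. Col20a1, at 1.15 ± 0.193 CPM with the empty vector, fell with the unmutated hairpin (-0.75 ± 0.21 log2 units, adjusted p = 0.00549) and rose with the 2-mutation hairpin by 0.97 ± 0.18 log2 units (adjusted p = 8.95e-05) and with the 5-mutation hairpin by 0.57 ± 0.19 log2 units (adjusted p = 0.0135). The 5-mutation call on Col20a1 was lost without the second empty vector library (adjusted p = 0.0565). Col16a1 rose with the 5-mutation hairpin by 0.39 ± 0.16 log2 units (adjusted p = 0.042), a call lost without empty vector library 1 or 3 or 5-mutation library 1, 3 or 4 (adjusted p = 0.0504 to 0.158). Without the third 5-mutation library it was at 0.31 ± 0.17 log2 units (adjusted p = 0.12).

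**Figure D5:**
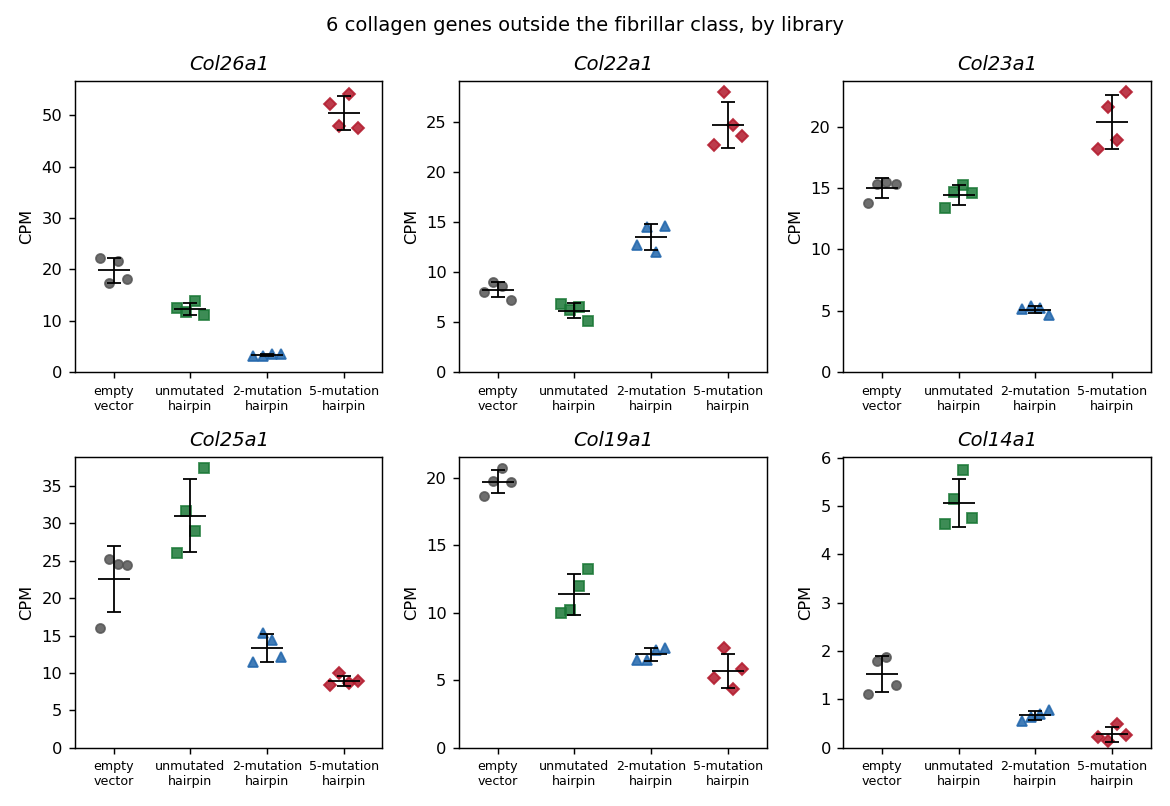
CPM of Col26a1, Col22a1, Col23a1, Col25a1, Col19a1 and Col14a1, chosen after their values were seen, in each library of the 4 groups (points), with the mean and SD as a bar. The highest group is the 5-mutation hairpin for Col26a1, Col22a1 and Col23a1, the unmutated hairpin for Col25a1 and Col14a1, and the empty vector for Col19a1.

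Transmembrane collagens span the cell membrane and shed their outer part. Col25a1, at chr3:130131501-130599877, is made by neurons, and its shed part binds amyloid plaques. The libraries held 16, 25.2, 24.6 and 24.4 CPM of Col25a1 with the empty vector and 26.0, 31.7, 28.9 and 37.4 CPM with the unmutated hairpin. With the 2-mutation hairpin they held 11.5, 15.3, 14.4 and 12.1 CPM, and with the 5-mutation hairpin 8.41, 9.93, 8.65 and 8.92 CPM. The means of the groups were 22.6 ± 4.38, 31.0 ± 4.87, 13.3 ± 1.83 and 8.98 ± 0.667 CPM in the same order. Col25a1 rose with the unmutated hairpin by 0.46 ± 0.14 log2 units (adjusted p = 0.015), and this call was lost without the fourth library of that group (adjusted p = 0.0525) and in a fit of these 2 groups alone (adjusted p = 0.0644). It fell with the 2-mutation hairpin (-0.77 ± 0.14 log2 units, adjusted p = 0.000211) and with the 5-mutation hairpin (-1.33 ± 0.15 log2 units, adjusted p = 1.14e-06), and the unmutated hairpin exceeded the 5-mutation hairpin by 1.79 ± 0.15 log2 units (adjusted p = 3.15e-08). For Col23a1 the empty vector libraries gave 13.8, 15.3, 15.5 and 15.3 CPM, and the unmutated hairpin gave 13.3, 14.6, 15.3 and 14.6 CPM. Levels were 5.10, 5.38, 5.20 and 4.66 CPM with the 2-mutation and 18.2, 21.6, 18.9 and 22.8 CPM with the 5-mutation hairpin. This gave means of 15 ± 0.828, 14.5 ± 0.809, 5.09 ± 0.307 and 20.4 ± 2.19 CPM. Col23a1, at chr11:51289920-51583918, fell with the 2-mutation hairpin (-1.56 ± 0.08 log2 units, adjusted p = 1.34e-13) and rose with the 5-mutation hairpin by 0.44 ± 0.07 log2 units (adjusted p = 1.92e-05), and its value with the unmutated hairpin was -0.05 ± 0.07 log2 units (adjusted p = 0.618). Col13a1, a collagen of the neuromuscular junction, rose with the 2-mutation hairpin by 1.08 ± 0.27 log2 units (adjusted p = 0.00169), and Col17a1, a hemidesmosome collagen, by 0.84 ± 0.29 log2 units (adjusted p = 0.0152). The call on Col17a1 was lost without the first 2-mutation library (adjusted p = 0.08). Both genes were at low levels. Col13a1 was at 0.0939 ± 0.0297 CPM per kilobase of exon with the empty vector and 0.195 ± 0.0485 with the 2-mutation hairpin. Col17a1 was at 0.0527 ± 0.00777 and 0.0938 ± 0.0297 CPM per kilobase.

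Col26a1 encodes a small secreted collagen first described in testis and ovary and lies at chr5:136741759-136883209 on the minus strand. In the empty vector group Col26a1 stood at 22.2, 17.3, 21.6 and 18.1 CPM, and in the unmutated group at 12.4, 11.6, 13.9 and 11.1 CPM. Values of 3.11, 3.18, 3.53 and 3.48 CPM were measured with the 2-mutation hairpin and of 52.3, 47.9, 54.1 and 47.5 CPM with the 5-mutation hairpin. Averaged by group, Col26a1 was at 19.8 ± 2.46, 12.3 ± 1.24, 3.32 ± 0.209 and 50.5 ± 3.25 CPM. The 4 groups did not overlap, and each had a narrow spread. Against the empty vector Col26a1 fell with the unmutated hairpin (-0.69 ± 0.08 log2 units, adjusted p = 5.82e-07) and with the 2-mutation hairpin (-2.57 ± 0.09 log2 units, adjusted p = 5.2e-16), and rose with the 5-mutation hairpin by 1.35 ± 0.08 log2 units (adjusted p = 2.44e-12). The 2-mutation against 5-mutation difference was -3.92 ± 0.09 log2 units (adjusted p = 3e-19), the largest in size among the 43 tested collagen genes in that comparison. Col28a1, a collagen of peripheral nerve, rose with the 5-mutation hairpin by 1.21 ± 0.29 log2 units (adjusted p = 0.00107), from 0.451 ± 0.147 to 1.06 ± 0.263 CPM.

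Multiplexins are basement membrane collagens that carry sugar chains, and the end fragment of the Col18a1 product is endostatin, an inhibitor of vessel growth. Empty vector libraries had Col15a1 at 3.47, 2.77, 3.20 and 2.95 CPM and unmutated hairpin libraries at 4.77, 4.61, 5.40 and 4.14 CPM. For the 2-mutation libraries it was 1.90, 2.28, 2.61 and 1.72 CPM, and for the 5-mutation libraries 9.24, 7.94, 13.5 and 8.87 CPM. In group order the means were 3.10 ± 0.306, 4.73 ± 0.523, 2.13 ± 0.399 and 9.88 ± 2.45 CPM. Col15a1 rose with the unmutated hairpin by 0.61 ± 0.16 log2 units (adjusted p = 0.00339) and with the 5-mutation hairpin by 1.67 ± 0.15 log2 units (adjusted p = 4.48e-09), and fell with the 2-mutation hairpin (-0.55 ± 0.17 log2 units, adjusted p = 0.00645), with no overlap among the 4 groups. Col18a1 was at 5.14, 3.60, 7.0 and 6.31 CPM in the 4 empty vector libraries and at 6.79, 5.03, 10.9 and 9.01 CPM with the unmutated hairpin. The 2-mutation libraries held 2.71, 3.72, 8.23 and 4.85 CPM of it and the 5-mutation libraries 6.67, 5.43, 36.3 and 11.0 CPM. Group means were 5.51 ± 1.49, 7.93 ± 2.56, 4.88 ± 2.40 and 14.8 ± 14.5 CPM in that order. Col18a1 passed with none of the hairpins, at 0.51 ± 0.59 log2 units (adjusted p = 0.537), -0.19 ± 0.60 log2 units (adjusted p = 0.8) and 1.40 ± 0.58 log2 units (adjusted p = 0.0571), and its 5-mutation value was 0.46 ± 0.40 log2 units (adjusted p = 0.364) without the third library. With the library number as a block in edgeR's test its 5-mutation value passed (1.17 log2 units, adjusted p = 0.0127). That value also passed by the DESeq2 Wald test (adjusted p = 0.0216). In edgeR's test it passed with protein-coding genes only (adjusted p = 0.0485) and without the first or second 5-mutation library (adjusted p = 0.033 and 0.0223). Without the filter on low counts the 5-mutation and unmutated values passed (adjusted p = 6.69e-42 and 1.2e-05). Among the network and anchoring collagens, none passed with the unmutated or the 2-mutation hairpin and 3 of 4 rose with the 5-mutation hairpin (75%, beside 28.4% of all tested genes). These were Col8a2, a chain of the corneal basement layer (1.96 ± 0.41 log2 units, adjusted p = 0.000283), Col10a1, the collagen of growing cartilage (2.32 ± 0.64 log2 units, adjusted p = 0.00667), and Col7a1, the anchoring fibril of skin (0.94 ± 0.38 log2 units, adjusted p = 0.0462). Col8a2 was at a low level, 0.471 to 0.719 CPM in the 5-mutation libraries. Without the third 5-mutation library, Col8a2 was at 1.92 ± 0.43 log2 units (adjusted p = 0.00066), Col10a1 at 1.82 ± 0.62 log2 units (adjusted p = 0.0232) and Col7a1 at 0.29 ± 0.23 log2 units (adjusted p = 0.309), so the call on Col7a1 was lost. It was also lost without any 1 of the empty vector libraries or without the second 5-mutation library (adjusted p = 0.061 to 0.0994), and with DESeq2 size factors (adjusted p = 0.0538).

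Between the hairpins, collagen genes also differed in both directions. The unmutated against 2-mutation comparison gave 11 higher and 9 lower collagen genes, where 31.2% of all tested genes were higher and 31.5% lower, and both collagen shares (25.6% and 20.9%) were below these. The unmutated against 5-mutation comparison gave 6 higher and 18 lower, beside 26.8% and 28.5% of all tested genes, and collagen shares of 13.95% and 41.9%. Without the third 5-mutation library 11 were higher and 14 lower. The 2-mutation against 5-mutation comparison gave 10 higher and 15 lower, beside 32.3% and 33.6%, and collagen shares of 23.3% and 34.9%. With that library left out 12 were higher and 12 lower. The 2-mutation hairpin was above both other hairpins for Col4a2, Col4a5, Col4a6, Col6a1, Col13a1 and Col27a1, and below both for Col15a1, Col23a1, Col26a1, Col8a2 and Col9a3, each by a passed test in both comparisons. For Col13a1 the 2-mutation against 5-mutation call was lost without the first 2-mutation library (adjusted p = 0.0603).

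Compared per kilobase of exon, Col4a2 was the highest collagen in every group, at 7.20 ± 0.570, 15.5 ± 0.753, 22.7 ± 1.13 and 16.1 ± 2.29 CPM per kilobase with the empty vector and the unmutated, 2-mutation and 5-mutation hairpins. In the empty vector group Col6a1 came next at 6.57 ± 0.676, which did not differ from Col4a2 beyond the spread, followed by Col4a1 at 4.03 ± 0.185, Col19a1 at 2.86 ± 0.123, Col23a1 at 2.61 ± 0.144 and Col26a1 at 2.42 ± 0.301. The order below Col4a2 depended on the group. Col4a1 was the second with all 3 hairpins, Col26a1 was the third with the 5-mutation hairpin at 6.17 ± 0.398, and Col4a5 was the fourth with the 2-mutation hairpin at 1.59 ± 0.361 CPM per kilobase. Col19a1 was the fourth with the empty vector, and it was not among the highest 6 with the 2-mutation or the 5-mutation hairpin.

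Genes that fold and modify collagen chains changed in both directions. Of 21 tested, 6 were higher and 4 lower with the unmutated hairpin, 9 higher and 7 lower with the 2-mutation hairpin, and 9 higher and 2 lower with the 5-mutation hairpin, or 28.6% and 19.0%, 42.9% and 33.3%, and 42.9% and 9.52% of the list. Over all tested genes the shares were 20.8% and 19.5%, 32.5% and 30.8%, and 28.4% and 26.5% in the same order. P3h4, a partner of lysyl hydroxylase in the endoplasmic reticulum, rose with the unmutated hairpin by 0.59 ± 0.10 log2 units (adjusted p = 6.77e-05) and with the 5-mutation hairpin by 1.06 ± 0.10 log2 units (adjusted p = 8.2e-09), and fell with the 2-mutation hairpin (-0.99 ± 0.11 log2 units, adjusted p = 6.29e-08). P4ha1, a catalytic subunit of prolyl 4-hydroxylase, fell with the unmutated hairpin (-0.50 ± 0.06 log2 units, adjusted p = 1.1e-06) and rose with the 5-mutation hairpin by 0.46 ± 0.06 log2 units (adjusted p = 1.29e-06), and its partner subunit P4hb rose with the 2-mutation hairpin by 0.62 ± 0.06 log2 units (adjusted p = 2.83e-09). Colgalt1, which adds galactose to collagen, fell with the unmutated and 2-mutation hairpins with changes of -0.48 ± 0.04 log2 units (adjusted p = 1.59e-09) and -0.31 ± 0.04 log2 units (adjusted p = 4.03e-07). Fkbp14, a folding enzyme, rose with the 2-mutation and 5-mutation hairpins by 0.54 ± 0.06 log2 units (adjusted p = 1.66e-07) and 0.58 ± 0.06 log2 units (adjusted p = 8.03e-08).

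Of 12 tested genes for trimming and cross-linking, 2 were higher and 2 lower with the unmutated hairpin, 3 and 2 with the 2-mutation hairpin, and 3 and 4 with the 5-mutation hairpin, or 16.7% and 16.7%, 25% and 16.7%, and 25% and 33.3%, beside the shares of all tested genes just given. With the 5-mutation hairpin 1 was higher and 4 lower when the third library was left out. Adamts2, which cuts the leading propeptide from fibrillar procollagen, fell with the unmutated hairpin (-0.37 ± 0.08 log2 units, adjusted p = 0.000985), rose with the 2-mutation hairpin by 0.88 ± 0.08 log2 units (adjusted p = 1.77e-09) and fell with the 5-mutation hairpin (-1.80 ± 0.09 log2 units, adjusted p = 1.93e-13). Bmp1, which cuts the trailing propeptide, fell with all 3 with changes of -0.40 ± 0.08 log2 units (adjusted p = 0.000511), -0.58 ± 0.08 log2 units (adjusted p = 2.85e-06) and -0.65 ± 0.08 log2 units (adjusted p = 7.84e-07). Among 9 tested collagen receptors, 2 rose and none fell with the unmutated hairpin, 2 rose and 2 fell with the 2-mutation hairpin, and 2 rose and 1 fell with the 5-mutation hairpin. The shares were 22.2% higher with each hairpin, and none, 22.2% and 11.1% lower, and 1 rose and 1 fell with the 5-mutation hairpin without the third library. Ddr2, a receptor kinase for fibrillar collagen, rose with the unmutated hairpin by 0.98 ± 0.16 log2 units (adjusted p = 5.16e-05) and fell with the 2-mutation and 5-mutation hairpins with changes of -0.68 ± 0.17 log2 units (adjusted p = 0.00162) and -0.86 ± 0.17 log2 units (adjusted p = 0.000255). Adgrg1, the type III collagen receptor, rose with the 2-mutation and 5-mutation hairpins by 0.38 ± 0.06 log2 units (adjusted p = 1.84e-05) and 0.62 ± 0.06 log2 units (adjusted p = 2.16e-08), and was at -0.09 ± 0.06 log2 units (adjusted p = 0.314) with the unmutated hairpin.

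Of 11 tested genes for collagen breakdown and its inhibitors, 1 rose and 2 fell with the unmutated hairpin, none rose and 5 fell with the 2-mutation hairpin, and 4 rose and 2 fell with the 5-mutation hairpin, or 9.09% and 18.2%, none and 45.5%, and 36.4% and 18.2%, where all tested genes gave 20.8% and 19.5%, 32.5% and 30.8%, and 28.4% and 26.5%. Timp2, an inhibitor of matrix metalloproteinases, fell with all 3 with changes of -0.23 ± 0.05 log2 units (adjusted p = 0.00141), -0.28 ± 0.05 log2 units (adjusted p = 7.72e-05) and -1.02 ± 0.05 log2 units (adjusted p = 4.17e-13). Mmp15, a membrane metalloproteinase, fell with the 2-mutation hairpin (-0.76 ± 0.07 log2 units, adjusted p = 1.16e-08) and rose with the 5-mutation hairpin by 0.47 ± 0.07 log2 units (adjusted p = 8.62e-06). Among the other basement membrane genes, of 16 tested, 2 rose and 1 fell with the unmutated hairpin, 1 rose and 4 fell with the 2-mutation hairpin, and 6 rose and 2 fell with the 5-mutation hairpin. The shares were 12.5% and 6.25%, 6.25% and 25%, and 37.5% and 12.5%, and without the third 5-mutation library 5 rose and 4 fell with the 5-mutation hairpin. Agrn, the proteoglycan agrin, fell with the unmutated and 2-mutation hairpins with changes of -0.34 ± 0.04 log2 units (adjusted p = 6.37e-08) and -0.65 ± 0.04 log2 units (adjusted p = 4.75e-13) and rose with the 5-mutation hairpin by 0.24 ± 0.04 log2 units (adjusted p = 4.86e-06). Lamc1, a laminin chain, rose with the 2-mutation hairpin by 0.63 ± 0.13 log2 units (adjusted p = 0.000842), while Lamb1, its usual partner, fell (-0.64 ± 0.10 log2 units, adjusted p = 2.3e-05). Lama4, a laminin chain, was at 2.01, 1.49, 1.59 and 1.63 CPM with the empty vector and at 4.23, 3.45, 9.59 and 2.91 CPM with the 5-mutation hairpin, where it rose by 1.58 ± 0.30 log2 units (adjusted p = 0.000241). Nid2, a nidogen, was at 1.35, 1.49, 1.94 and 2.21 CPM and at 3.79, 3.75, 10.9 and 5.56 CPM, and rose by 1.75 ± 0.43 log2 units (adjusted p = 0.0029). The third 5-mutation library was the highest for both, and no library overlapped the empty vector. Without it the rises were 1.08 ± 0.17 log2 units (adjusted p = 1.52e-05) for Lama4 and 1.30 ± 0.36 log2 units (adjusted p = 0.00688) for Nid2.

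Because the title of the series concerns microRNAs, the collagen 3′ UTRs were searched for seed matches of miR-29, a microRNA family known for repressing extracellular matrix genes, and of let-7. The 3 mature miR-29 sequences from RefSeq (GRCm38.p6) are shown with the seed, bases 2 to 8, in capitals, since they share that seed and so the same match.
miR-29a-3p: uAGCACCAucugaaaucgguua
miR-29b-3p: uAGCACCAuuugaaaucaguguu
miR-29c-3p: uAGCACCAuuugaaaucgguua
Examples of the matches in transcripts named above are given in the sense direction, with the 7 bases that pair with the seed in capitals and GRCm38 coordinates.
Col4a1, chr8:11199761-11199783, minus strand: gccaccgtcacaacaTGGTGCTa
Col4a2, chr8:11448344-11448366, plus strand: gtgggaaggccacgtTGGTGCTt
Col4a5, chrX:141688238-141688260, plus strand: cactgctcccaccaaTGGTGCTa
Col4a6, chrX:141166514-141166536, minus strand: ctgtttccatccatcTGGTGCTa
Col1a1, chr11:94952523-94952545, plus strand: gtgggaaggaatttcTGGTGCTa
Col3a1, chr1:45348967-45348989, plus strand: ttcaaaatgtctcaaTGGTGCTa
Col26a1, chr5:136742903-136742925, minus strand: gtccctggggagagaTGGTGCTt

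A miR-29 match was present in the longest annotated 3′ UTR of 24 of the 43 tested collagen genes (55.8%), with 40 matches in all, and in 2252 of 14232 tested genes with a 3′ UTR of at least 50 bases (15.8%). A let-7 match was present in 9 of the 43 (20.9%) and in 10.6% of the tested genes. Col5a1 and Col26a1 held 4 miR-29 matches each, Col4a5 held 3, Col4a2 held 2, and Col4a1, Col4a6, Col1a1 and Col3a1 held 1 each. Collagen genes with a miR-29 match had a median UTR of 1310 bases, those without had 882, and all tested genes had 1223. With the unmutated hairpin 11 of the 24 genes with a match were higher and 3 lower, against 3 and 4 of the 19 without. The 2-mutation hairpin gave 10 higher and 5 lower of 24, against 4 and 4 of 19, and the 5-mutation hairpin gave 13 and 2 of 24, against 8 and 4 of 19. Median log2 fold changes of collagen genes with a match were 0.57, 0.56 and 0.88 with the unmutated, 2-mutation and 5-mutation hairpins, and those without a match had 0.20, 0.12 and 0.44. The shares of collagen genes with a match were 45.8%, 41.7% and 54.2% higher and 12.5%, 20.8% and 8.33% lower. Without a match they were 15.8%, 21.1% and 42.1% higher and 21.1% lower each time. Over all tested genes with a miR-29 match the medians were 0.00, 0.01 and -0.01. Of these genes 25.5%, 38.1% and 32.5% were higher and 28.9%, 38.4% and 35.1% lower. Of all tested genes without a match 25.5%, 40.7% and 33.1% were higher and 22.6%, 31.3% and 31.0% lower. Members with more matches did not all move one way: Col5a1 was lower with each hairpin, and Col26a1 was lower with the unmutated and 2-mutation hairpins and higher with the 5-mutation hairpin. Collagen genes with a let-7 match had median log2 fold changes of 0.79, 0.91 and 1.35, and those without had 0.41, 0.12 and 0.67. Of the 9 with a let-7 match 22.2%, 22.2% and 66.7% were higher and 11.1%, 33.3% and 11.1% lower. Of the rest 35.3%, 35.3% and 44.1% were higher and 17.6%, 17.6% and 14.7% lower. Over all tested genes with a let-7 match 28.7%, 41.1% and 34.9% were higher and 28.6%, 35.3% and 34.7% lower. Both matches were held by 6 collagen genes. These counts are descriptions, and the levels of miR-29 and let-7 themselves were not analysed here.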

How the data were processed

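RNA was measured in 16 libraries, 4 in each of 4 groups. The authors deposited whole-number read counts per gene, and per the submitters' processing notes the build was GRCm38.p6 and the tools include bcl2fastq 2.20.0.422 and STAR 2.7.2b, with cutadapt 1.15 and Trim Galore 0.6.0, and also featureCounts and edgeR. The strand setting is not given in the sources used here. Symbols came from GENCODE vM21, where 54587 gene IDs matched with their version, 55154 matched when the version was ignored and 181 did not match. Counts were tested with edgeR 4.0.16 (R 4.3.3), using TMM factors, filterByExpr and a robust quasi-likelihood fit over all 16 libraries with no block. The 6 contrasts were each adjusted by Benjamini-Hochberg over 19479 genes, with a threshold of 0.05. Alternatives used DESeq2 1.42.0, other filters and left-out libraries, and the code was tested on simulated data. CPM used the TMM library sizes. Pairs of libraries within a group gave a chi-square of 3.46 to 24.2 for each degree of freedom, above the value near 1 of a library deposited again. The collagen members and the pathway, marker and microRNA lists were chosen with earlier results of these data known. Every collagen gene with a group mean of at least 5 CPM is named with all its libraries. From each pathway list, up to 4 genes with the smallest p in each comparison with the empty vector, among genes with a mean of at least 5 CPM, could be named. Promoter and microRNA sequences came from RefSeq (GRCm38.p6).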

Additional observations from a re-analysis of the deposited data

Results flagged for a closer look

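In 10 of 84 groups of 4 libraries examined (21 collagen genes with a group mean of at least 5 CPM, 4 groups each), the highest or lowest library lay further from its neighbour than Dixon's 95% critical value for 4 samples allows as a part of the group's range. Chance gives about 1 in 20 such groups. In the 5-mutation group, the third library was the highest for Col1a1 (58.2 CPM), Col1a2 (40.1 CPM), Col3a1 (57.5 CPM) and Col4a1 (112 CPM). In the empty vector group, the third library was the highest for Col1a1 (6.16 CPM), Col1a2 (3.60 CPM) and Col3a1 (3.64 CPM). The first empty vector library was the lowest for Col12a1 (4.79 CPM), Col23a1 (13.8 CPM) and Col25a1 (16 CPM).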

How the results depend on the processing

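The alternatives were DESeq2 size factors, no filter on low counts, a replicate block, library sizes without Gm26917 and Gm42418, protein-coding genes only, fits of 2 groups alone, the DESeq2 Wald test, and leaving out each library. Of 126 log2 fold changes of the 21 collagen genes above 5 CPM, 90 passed the test, 13 of these were lost and 25 others gained in at least 1 alternative. The direction turned for 1 of these: Col4a1 in the 2-mutation against 5-mutation comparison went from -0.14 (adjusted p = 0.572) to 0.18 (adjusted p = 0.0426) without the third 5-mutation library, and stood at -0.24 without the first (leave-one-out range), and the cause was not tested. Without the filter, the lower calls of that comparison went from 15 to 23, and the cause was not tested. With single libraries left out, the higher calls ranged from 9 to 14, 11 to 14 and 19 to 22 with the unmutated, 2-mutation and 5-mutation hairpins against the empty vector, and the lower calls were 7, 9 to 10 and 5 to 8. For unmutated against 2-mutation they were 9 to 11 and 9, for unmutated against 5-mutation 6 to 11 and 12 to 19, and for 2-mutation against 5-mutation 10 to 12 and 12 to 19. With the replicate number as a block, higher and lower calls were 17 and 7, 18 and 9, and 25 and 7 against the empty vector, and 11 and 9, 8 and 20, and 11 and 22 between the hairpins in the same order. The block fit also called Col1a2 and Col3a1 with the unmutated hairpin (adjusted p = 0.0456 and 0.0427). It called Col1a1, Col1a2 and Col3a1 with the 2-mutation hairpin (0.00626, 0.00764 and 0.00113), and Col4a6 and Col18a1 with the 5-mutation hairpin (0.0138 and 0.0127). None of these passed in edgeR's fit of the 19479 filtered genes without the block. The labels do not say what a number marks, and the pairing was not clear from the data. Deviations of same-number libraries correlated at a median of 0.099 against -0.03 for different numbers, 12 of 24 same-number pairs were above 0.1 (-0.0215 to 0.272), among them all 6 pairs of number 2 (0.135 to 0.272), and 11 of 16 libraries correlated best with their own number, which hints that numbers share a source. The fits without the block were kept because the labels name no pairing and 12 pairs were not above 0.1. If numbers mark a shared source, these fits ignored it. Calls that differ between the fits with and without the block are therefore unsettled. Leaving out the third 5-mutation library for pathway genes was chosen after seeing the data and changed no call among the 19 named for the 5-mutation hairpin. Low levels limited Col4a3, which with 65 counts in all could not be tested.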

Other observations

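A few genes ranked alike by library number in all 4 groups, and these genes were chosen after their values were seen. Col6a4, an alternative type VI chain, was lowest in the third library of each group. It was at 2.01, 2.14, 0.773 and 1.87 CPM in the empty vector group, 4.23, 2.97, 1.49 and 3.99 CPM in the unmutated group, 2.39, 3.15, 1.41 and 3.31 CPM in the 2-mutation group and 4.01, 3.63, 1.45 and 4.38 CPM in the 5-mutation group. Col8a1, a chain of short network collagens, was lowest in the second library of each group. It was at 0.689, 0.119, 0.839 and 1.01 CPM in the empty vector group, 0.727, 0.0935, 1.33 and 1.36 CPM in the unmutated group, 0.875, 0.223, 1.53 and 1.16 CPM in the 2-mutation group and 0.784, 0.451, 4.84 and 2.19 CPM in the 5-mutation group. Ttr, a transport protein made by the choroid plexus, was also lowest in the second library of each group. It was at 10.2, 1.10, 22.3 and 26.2 CPM in the empty vector group, 14.8, 1.64, 30.6 and 39.5 CPM in the unmutated group, 16.1, 5.33, 53.9 and 47.2 CPM in the 2-mutation group and 15.1, 5.00, 112 and 43.3 CPM in the 5-mutation group.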
